A study of Homo sapiens with 12 samples.

Results

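ATF4, ATF3, CEBPB, CEBPG, DDIT4, GADD45A and PPP1R15B are regulators of the response of cells to stress and starvation. Their ribosome footprints were followed in HEK293, a human embryonic kidney line, in 3 conditions and 2 gradient fractions. Each gene was taken by the coding open reading frames (ORFs; types CDS, Trunc and Variant of the deposited table) that lie inside its RefSeq gene on hg38, summed per gene. The 7 genes are among 6375 genes with a coding ORF. Of these 6375, 4765 had enough footprints to be tested, 6 of the 7 among them, and PPP1R15B was too low. Log phase cells grew in DMEM with FBS and P/S. Serum-starved cells spent 2 h without FBS. Amino acid-starved cells spent 1 h in EBSS to which MEM vitamins, FBS and P/S had been added, so serum was present there. From each condition, footprints of pooled monosomes (mRNAs with 1 ribosome) and of pooled polysomes (several ribosomes) were sequenced from 2 libraries, A and B, which makes 6 groups and 12 libraries. All lysates held cycloheximide, which stops elongating ribosomes. No label says that the 2 libraries of a group come from separate cultures, so p-values measure only the spread between these libraries.

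In the integrated stress response, kinases that sense missing amino acids, misfolded proteins, haem or double-stranded RNA phosphorylate the initiation factor eIF2, and most initiation slows. The mRNA of the transcription factor ATF4 has upstream ORFs (uORFs), the last of which overlaps the start of the coding ORF in another frame, and when initiation slows more ribosomes pass over it to the coding ORF. ATF4 then binds DNA as a dimer with C/EBP proteins and others and induces genes such as ATF3 and DDIT4, while phosphatase subunits such as PPP1R15B bring eIF2 back to its active form.

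Between 119947 and 346200 coding footprints were counted per monosome library, and between 1493881 and 5313462 per polysome library. A monosome value of a weakly translated gene therefore rests on few footprints. Of 8 markers chosen for HEK293 cells, 5 had a coding ORF. NEFM, a neurofilament subunit that this line expresses, had 486 to 6110 CPM (coding footprints scaled to the size of each library with TMM factors), and KRT8 0 to 4.94 CPM. Of 12 markers of blood, fibroblasts, liver and endothelium, HBA1 and COL1A1 had one, with 0 to 1.96 and 0 to 9.24 CPM. Values are relative to the other coding footprints of a library. No mRNA libraries were analysed here, so the amount of an mRNA and its translation cannot be told apart, nor can fewer cells expressing a gene and less RNA per cell.

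Each of the 7 genes kept 1 coding ORF, and the ORFs differ in how much of the gene they cover. ATF4 has an ORF of 1077 nt in 2 exons at chr22:39521425-39522602 (hg38, plus strand), called from an ATT codon, with a caller p of 0.11. ATF3 has one of 507 nt from ATG at chr1:212615022-212619555 (plus strand, caller p of 1), and DDIT4 one of 699 nt from ATG at chr10:72274217-72275188 (plus strand). GADD45A has one of 492 nt called from TTG at chr1:67685501-67687774 (plus strand), of the truncated type. CEBPB (240 nt, chr20:50191832-50192071, plus strand), CEBPG (294 nt, chr19:33379399-33379692, plus strand) and PPP1R15B (117 nt, chr1:204406092-204406208, minus strand) likewise have truncated ORFs only. Over the 12 libraries, ATF4 had 2023.5 footprints on its coding ORF, ATF3 1905.5, GADD45A 611.4, CEBPG 605.0, DDIT4 573.8, CEBPB 275.0 and PPP1R15B 43.0.

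RefSeq promoter windows (GRCh38.p14, 250 bases before to 50 after a transcription start) were on hand for 6 of the 7 genes, in 10 windows; GADD45A had none. They were searched on both strands for the motif TGATGNAA, the core shared by composite sites of C/EBP and ATF proteins, and for TGACGTNA, the cAMP response element core. The first was found in 3 of the 10 windows, 1 each of ATF3, CEBPG and PPP1R15B, and in 3.62% of all 35116 windows. The second was found in none of the 10 and in 3.01% of all. The matches are shown because ATF4 binds such elements with C/EBP partners, and capitals mark the motif in each. A match is a description of the letters, and no binding was measured here. They lie at chr1:212565206-212565233 (plus strand) for ATF3, chr19:33374061-33374088 (plus strand) for CEBPG and chr1:204412027-204412054 (minus strand) for PPP1R15B. The called ORFs of ATF3 begin only at chr1:212608769, far downstream of the ATF3 match. The CEBPG match lies inside its RefSeq gene, which begins at chr19:33373709. It also lies downstream of the called CEBPG uORFs at chr19:33373764-33373781 and chr19:33373819-33373887.
ATF3: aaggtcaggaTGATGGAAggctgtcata
CEBPG: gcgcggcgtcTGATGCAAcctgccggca
PPP1R15B: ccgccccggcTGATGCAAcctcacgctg

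ATF4 and CEBPG were higher in monosomes than in polysomes, and the other 4 tested genes did not pass the same test. ATF4, the central transcription factor of the response, had 361 and 357 CPM in log phase monosomes and 150 and 45.0 CPM in log phase polysomes (libraries A and B). In serum starvation the monosome libraries had 525 and 396 CPM and the polysome libraries 76.9 and 33.1 CPM. In amino acid starvation they had 297 and 229 CPM against 139 and 67.1 CPM. All 6 monosome libraries thus lay above all 6 polysome libraries, an order whose frequency among all 4765 genes was not counted. In polysomes A was 2.07 to 3.34 times B. The mean was 361 ± 99.6 CPM in monosomes and 85.2 ± 48.6 CPM in polysomes (SD, n = 6 each), a ratio of 4.24. On the fitted log2 scale ATF4 was 2.10 higher in monosomes over the mean of the 3 conditions (SE 0.367, edgeR quasi-likelihood test, adjusted p = 0.000633), and 365 of the 4765 genes had a larger value.

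CEBPG, a C/EBP protein without an activation domain of its own that pairs with ATF4, followed the same order. Log phase monosomes had 195 and 87.8 CPM and log phase polysomes 48.7 and 9.46 CPM. Serum starvation gave 97.9 and 53.6 CPM against 35.6 and 13.1 CPM. Amino acid starvation gave 111 and 87.2 CPM against 34.9 and 5.37 CPM. Here too no polysome library reached the lowest monosome library, an order likewise not counted over all genes. The mean was 105 ± 47.9 CPM in monosomes and 24.5 ± 17.5 CPM in polysomes (SD, n = 6 each), and the fitted difference was 2.05 (SE 0.516, edgeR, adjusted p = 0.00657). Leaving out the amino acid starvation polysome library A raised it to 2.76 (adjusted p = 0.00115). Per letter and condition, CEBPG was 1.46 to 4.02 and ATF4 1.10 to 3.58 higher in monosomes, in 6 of 6 pairs each.

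**Figure D1:**
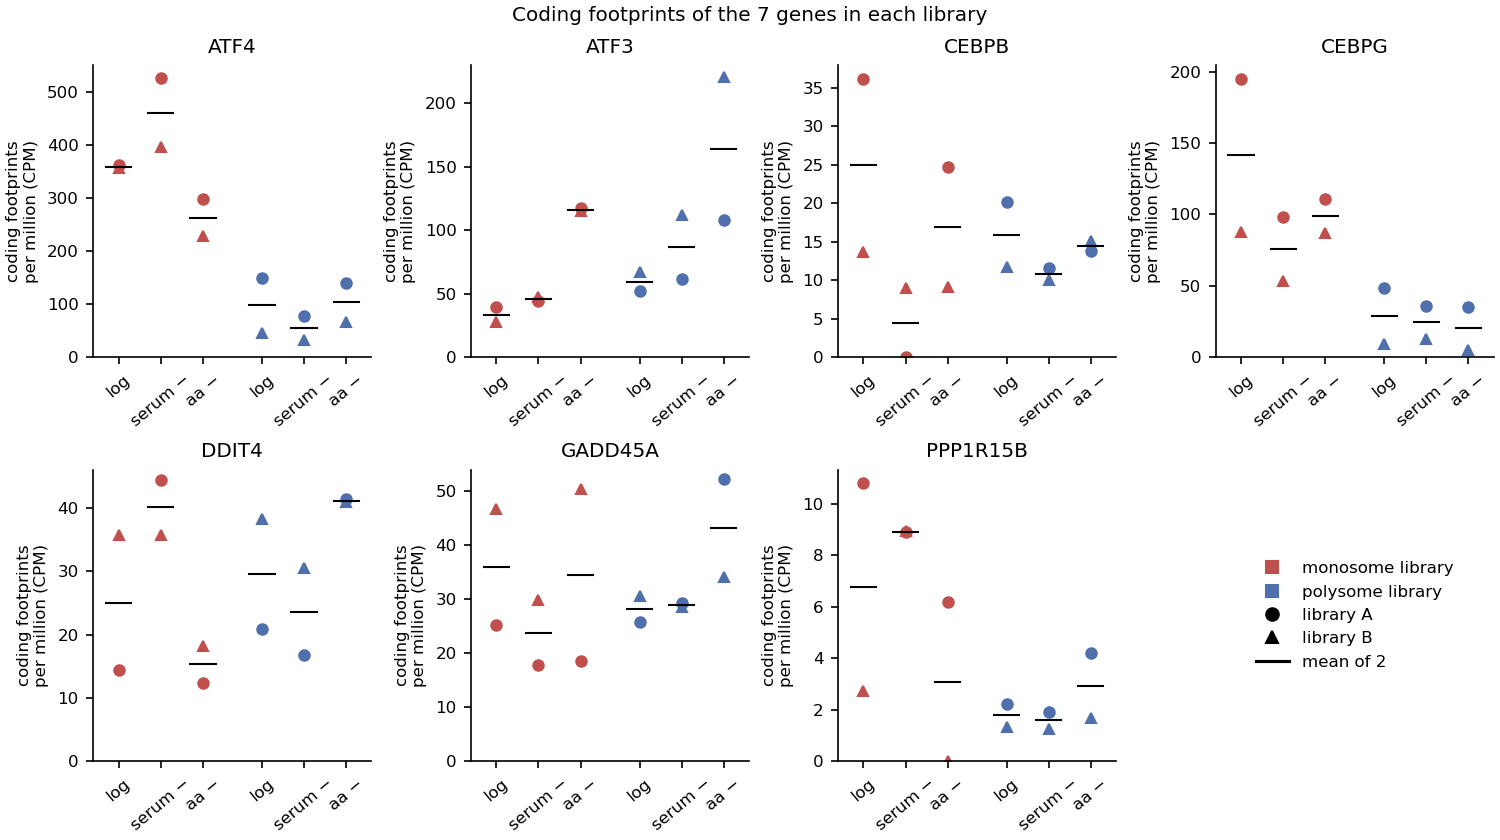
Coding footprints (TMM-scaled CPM, linear axis from 0) of the 7 genes in each of the 12 libraries, monosomes in red and polysomes in blue, library A as circles and B as triangles, with the mean of 2 as a bar. ATF4 and CEBPG are higher in every monosome library than in any polysome library, an order not counted over all genes. The mean of ATF3 is highest in amino acid starvation in both fractions.

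ATF3, a transcription factor that is induced by ATF4 and then represses many stress genes, did not pass in the fit without the block. It had 27.4 to 117 CPM in monosomes (median 46.1) and 51.9 to 220 CPM in polysomes (median 87.1), so the fractions overlapped, and 1 of 6 pairs was above 0. The difference was -0.74 (SE 0.308, edgeR, adjusted p = 0.0681), and -0.74 (SE 0.258, adjusted p = 0.0167) once the library letter entered the fit as a replicate block. Over all alternatives 3 called this difference, the block among them. Without 1 library it ran from -0.43 (without amino acid starvation polysome B, adjusted p = 0.317) to -0.92, passed without the serum starvation polysome library A alone (-0.85, adjusted p = 0.0348), and DESeq2 gave -0.62 (adjusted p = 0.178). CEBPB, a C/EBP transcription factor of inflammation and fat cell differentiation, had a fitted difference of -0.00 (SE 0.387, adjusted p = 0.996), which was -2.23 (adjusted p = 0.356) without the serum starvation monosome library B, so its size was not settled. DDIT4, an inhibitor of the growth kinase complex mTORC1, differed by -0.29 (adjusted p = 0.567). GADD45A, a growth arrest and DNA damage protein, differed by -0.03 (SE 0.349, adjusted p = 0.955). DDIT4 ranged from 12.4 to 44.5 CPM in monosomes and 16.8 to 41.5 CPM in polysomes, and GADD45A from 17.8 to 50.5 and 25.8 to 52.3 CPM, so in both genes the fractions overlapped almost fully. PPP1R15B, not tested, had 0 to 10.8 CPM in monosomes and 1.28 to 4.21 CPM in polysomes.

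Of the 6 tested genes 2 were called higher and 0 lower in monosomes (adjusted p under 0.05), where 38.8% of all 4765 genes were called in either direction. With the block 2 were called higher and 1 lower, against 54.2% of all genes. The median of the 6 genes was -0.02 and that of all genes -0.18. A single gene being called is therefore common in this comparison. RLE scaling moved the median of all genes by 0.14 and DESeq2 by 0.152. ATF4 stayed between 1.89 and 2.28 over the gene-level alternatives with all 12 libraries in which its ORF was kept. These fits scale to coding footprints alone. In the ORF-level test given below, the ATF4 coding ORF was also called, with a smaller value outside this range. The coding part of all kept footprints differed between fractions. In log phase it was 289228 of 1204003 and 346200 of 778910 in monosomes A and B. In polysomes it was 5313462 of 7683720 and 2039730 of 3585364.

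**Figure D2:**
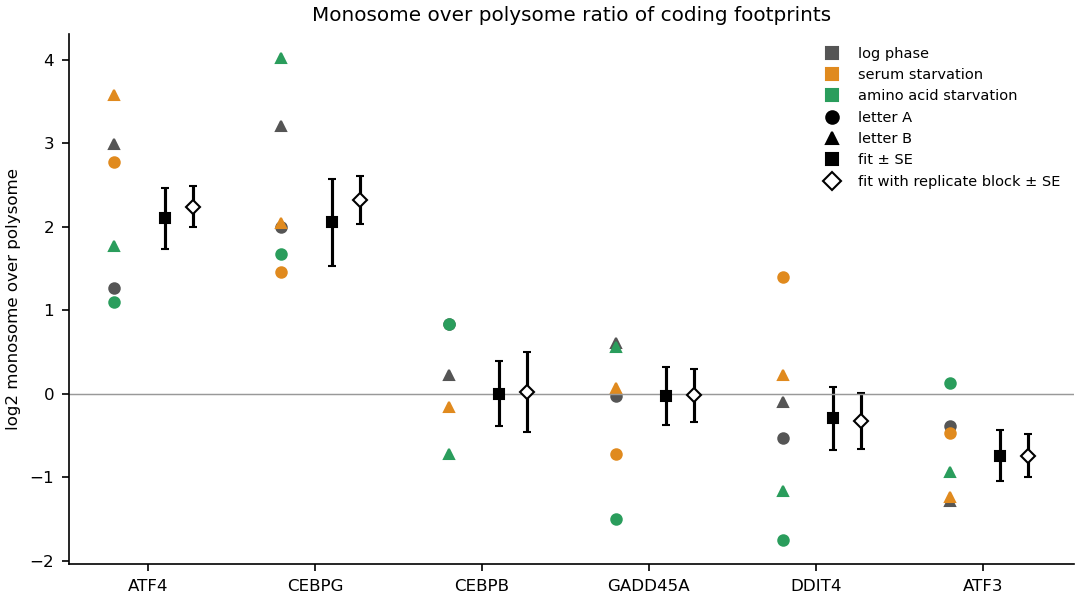
Log2 ratio of monosome over polysome coding footprints for the 6 tested genes. Coloured points are the 6 pairs of 1 condition and letter (5 for CEBPB, which had 0 CPM in 1 library), and black squares and open diamonds are edgeR fits with SE without and with a replicate block. All points of ATF4 and CEBPG lie above 0.

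Within single conditions the calls depended on the model. In log phase ATF4 differed by 1.87 (SE 0.626, adjusted p = 0.0646) and CEBPG by 2.25 (SE 0.86, adjusted p = 0.1). Leaving out 1 library moved ATF4 from 1.46 (without log phase polysome B) to 3.00 (without log phase polysome A, adjusted p = 0.0216), and CEBPG from 1.51 (without log phase monosome A) to 3.89 (without log phase polysome A, adjusted p = 0.0334). None of the 6 genes was called there by edgeR, against 11.4% of all genes; 2 had an unadjusted p under 0.05, and DESeq2 called 2. Without polysome library A of log phase, B of serum starvation or B of amino acid starvation edgeR called 2 as well, and without serum starvation polysome library A it called 1. In serum starvation ATF4 differed by 3.06 (SE 0.657, adjusted p = 0.0183), 1 of the 6 genes called against 6.84% of all genes. That call was lost without monosome library A (adjusted p = 0.099), monosome library B (0.0665) or polysome library B (0.0547) of serum starvation. In amino acid starvation none of the 6 was called by edgeR (7.11% of all genes), with 2 at an unadjusted p under 0.05 and 1 called by DESeq2. With the replicate block ATF4 and CEBPG were both called in each condition. Their values were 2.09 and 2.47 for log phase, 3.18 and 1.79 for serum starvation, and 1.44 and 2.69 for amino acid starvation, while 34.4%, 28.4% and 29.1% of all genes were.

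Levels of different genes were set against each other only per length of the kept coding ORF. In monosomes CEBPG had 359 ± 163 and ATF4 335 ± 92.5 CPM per kb (SD, n = 6), which did not differ beyond their spread. ATF3 followed with 129 ± 78.8 CPM per kb, and its libraries (54.1 to 232) overlapped those of each other gene. Then came CEBPB with 64.4 ± 53.9, GADD45A with 63.9 ± 28.5, PPP1R15B with 53.6 ± 35.6 and DDIT4 with 38.4 ± 19.2 CPM per kb, and these last 4 overlapped. In polysomes the order was another one, and ATF3 came first with 204 ± 123 CPM per kb. CEBPG (83.3 ± 59.6), ATF4 (79.1 ± 45.2), GADD45A (68.0 ± 19.5), CEBPB (57.2 ± 15.0) and DDIT4 (45.0 ± 15.2) lay within each other's spread, and PPP1R15B had 18.1 ± 9.27 CPM per kb.

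ATF3 was higher in amino acid starvation than in log phase in each pair of libraries. In monosomes ATF3 had 39.7 and 27.4 CPM in log phase and 117 and 115 CPM in amino acid starvation, so the starved libraries lay 2.95 and 4.18 times above those of log phase with the same letter. In polysomes it had 51.9 and 66.7 CPM in log phase and 108 and 220 CPM in starvation, 2.07 and 3.30 times as much. The 2 libraries of each group did not overlap in either fraction, but an exact permutation test of 2 against 2 cannot go below p = 0.333. The fitted change was 1.47 in polysomes (SE 0.488, edgeR, unadjusted p = 0.00893, adjusted p = 0.475) and 1.80 in monosomes (SE 0.571, unadjusted p = 0.00671, adjusted p = 0.928). With the replicate block the polysome change was 1.42 (SE 0.36, adjusted p = 0.0132) and the monosome change 1.80 (SE 0.503, adjusted p = 0.08). Only 158 of 4765 genes in polysomes and 93 in monosomes had a larger value than ATF3. Leaving out amino acid starvation polysome library B, which holds the highest ATF3 value, lowered the polysome change without the block to 0.88 (adjusted p = 0.999).

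ATF4 itself was not called higher in amino acid starvation. Its polysome libraries were at 0.924 and 1.49 times the log phase libraries with the same letter, and its monosome libraries at 0.821 and 0.643 times. The fitted changes were 0.07 (SE 0.604, adjusted p = 0.975) and -0.45 (SE 0.623, edgeR, adjusted p = 1), and with the block 0.15 (SE 0.395) and -0.50 (SE 0.421). CEBPG changed by -0.59 (SE 0.834, adjusted p = 0.853) and -0.51 (SE 0.879, adjusted p = 1) in polysomes and monosomes. Leaving out 1 library at a time gave -0.51 to 1.17 for ATF4 and -2.40 to 1.03 for CEBPG in polysomes, so neither direction was settled.

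The remaining genes did not pass in amino acid starvation. DDIT4 had 20.9 and 38.3 CPM in log phase polysomes and 41.5 and 40.9 CPM in starved polysomes, a change of 0.48 (SE 0.541, edgeR, adjusted p = 0.794). In monosomes it had 14.5 and 35.7 against 12.4 and 18.3 CPM, a change of -0.71 (SE 0.773), where the starved libraries hold 2.5 and 4.5 footprints and the change was 0.05 without log phase monosome B. GADD45A went from 25.8 and 30.6 to 52.3 and 34.2 CPM in polysomes, a change of 0.61 (SE 0.524, adjusted p = 0.716), and was -0.04 (SE 0.647) apart in monosomes (-0.98 to 0.46 without 1 library). CEBPB differed by -0.15 (SE 0.669; -0.36 to 0.29) and -0.58 (SE 0.895; -1.41 to 0.22).

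**Figure D3:**
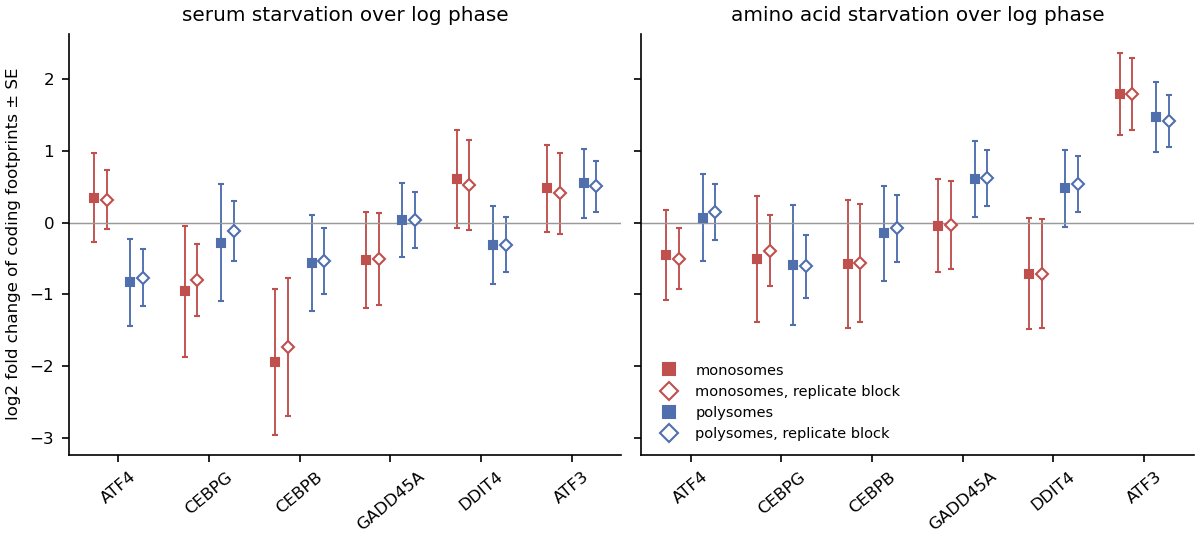
Log2 fold change of coding footprints (edgeR fit, bars are SE) in serum starvation (left) and amino acid starvation (right) over log phase for the 6 tested genes, in monosomes (red) and polysomes (blue), without (squares) and with (open diamonds) a replicate block. ATF3 in amino acid starvation (right) is above 0 by more than its SE in both fractions.

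Without the block, edgeR called none of the 6 genes and 0 of 4765 genes (0.0%) in amino acid starvation, in polysomes and in monosomes alike. At an unadjusted p under 0.05 there were 411 genes in polysomes and 240 in monosomes, ATF3 the 1 member in each, and DESeq2 called 90 and 24 genes, without giving ATF3 an adjusted p. With the block 10.1% of all genes were called in polysomes and 1.03% in monosomes. Library-size scaling moved the median of all polysome changes by 0.319, and the ATF3 change was then 1.74.

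Serum starvation gave no call for any of the 6 genes in either fraction. ATF4 had 0.512 and 0.735 times its log phase level in polysomes (-0.83, SE 0.608, edgeR, adjusted p = 1; 0.22 without log phase polysome library A) and 1.45 and 1.11 times in monosomes (0.35, SE 0.617, adjusted p = 1). ATF3 changed by 0.55 (SE 0.481) in polysomes and 0.48 (SE 0.607) in monosomes, above log phase in both letters of both fractions. CEBPG changed by -0.28 (SE 0.815) and -0.96 (SE 0.911), DDIT4 by -0.31 (SE 0.541) and 0.61 (SE 0.683), and GADD45A by 0.04 (SE 0.521) and -0.52 (SE 0.67). Without 1 library the polysome values ran from -1.09 to 1.28 for CEBPG (1.28 without log phase A, 0.26 without serum starvation B), from -0.82 to 0.26 for DDIT4 (0.26 without log phase B) and from -0.13 to 0.23 for GADD45A. The monosome value of DDIT4 ran from 0.14 (without log phase A) to 1.40 (without log phase B). CEBPB had 0.1 and 2.9 footprints in the 2 serum starvation monosome libraries, too few for a size. Among all 4765 genes edgeR called 0 (0.0%) in both fractions, with 5 genes in polysomes and 84 in monosomes at an unadjusted p under 0.05, none of them a member, and DESeq2 called 0 as well. With the block the counts were 0 (0.0%) in polysomes and 1 gene (0.021%) in monosomes.

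Whether a starvation moved a gene between fractions was tested as the change of its monosome over polysome ratio. For ATF4 this change was -0.52 (SE 0.868, edgeR, adjusted p = 0.998) in amino acid starvation and 1.19 (SE 0.865, adjusted p = 1) in serum starvation. For ATF3 it was 0.33 (SE 0.741) and -0.07 (SE 0.779), and for DDIT4 -1.19 (SE 0.943) and 0.92 (SE 0.871). No gene was called in either test without the block (0.0% of 4765 each, with 201 and 39 genes at an unadjusted p under 0.05, none a member, and 30 and 0 called by DESeq2). With it 1.15% and 0.021% of all genes were called, and no member. Both starvations were set against the same log phase libraries, so their values are not independent of each other.

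Upstream ORFs were kept for 4 of the 7 genes, 6 for ATF4, 2 for ATF3, 5 for CEBPG and 5 for PPP1R15B, 18 in all. They were kept whatever their caller p, which ran from 0.000339 (ATF4, 168 nt) to 0.998 (PPP1R15B, 453 nt). It was 0.852 for the ATF4 uORF of 75 nt, and 0.123 and 0.702 for the ATF3 ORFs of 261 and 72 nt. For the PPP1R15B ORFs of 18, 75 and 129 nt it was 0.0312, 0.00581 and 0.868. Most of these calls are thus weak. Over the 12 libraries they held 37.8% of the upstream and coding footprints of ATF4, 10.1% of those of ATF3, 9.27% of those of CEBPG and 98.4% of those of PPP1R15B. The last share is set against a coding ORF of 117 nt alone, since no other coding ORF was called for that gene.

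The main upstream ORF of ATF4 is an overlapping one (type uoORF) of 168 nt, or 56 codons, at chr22:39521361-39521528, called from an ACG codon. It shares 104 nt with the coding ORF, in another frame, and held 1148.1 footprints over the 12 libraries against 2023.5 on the coding ORF. On the scale of the coding values it had 88.1 to 238 CPM in monosomes (median 125) and 20.5 to 119 CPM in polysomes (median 34.3). In ORF-level tests, scaled with TMM factors over all tested ORFs, it was 0.95 higher in monosomes (SE 0.498, edgeR, adjusted p = 0.137), and 1.13 with the block (SE 0.345, adjusted p = 0.00685). Leaving out 1 library gave 0.13 (without log phase monosome A, adjusted p = 0.886) to 1.43 (without log phase polysome A, adjusted p = 0.0292), and no filter 0.19 (adjusted p = 0.917), so the difference of this ORF was not settled. Scaled to coding footprints, though without the TMM factors of the gene-level values, it was 1.73 higher (edgeR, adjusted p = 0.00812). On the first scale the ATF4 coding ORF was 1.40 higher (SE 0.456, adjusted p = 0.0256). A spliced ATF4 uORF of 75 nt called from AGG (chr22:39520712-39521388) had 5.34 to 22.9 CPM in monosomes and 0.359 to 3.25 CPM in polysomes. It was 2.61 higher in monosomes (SE 0.678, adjusted p = 0.00828), a call that was lost without the serum starvation monosome library B (adjusted p = 0.0872). At the ORF level 39.5% of 26466 ORFs were called without and 54.5% with the block.

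Within a library, the share of ATF4 footprints on upstream ORFs does not depend on the scaling. In log phase polysomes it was 44.8% (95% Wilson interval 41.8 to 47.7, counting error only) in A and 41.0% (34.1 to 48.7) in B. In serum starvation polysomes it was 43.1% and 39.7%, close to log phase. In amino acid starvation polysomes it was 23.4% (18.8 to 28.3) in A and 33.0% (28.0 to 38.6) in B, below both log phase libraries. The mean went from 42.9% ± 2.69 to 28.2% ± 6.79 (SD, n = 2 each), 14.7 points apart, by 21.4 points in A and 8.00 points in B. The letters fell in different ways. From log phase to amino acid starvation polysomes, the overlapping ORF went from 119 to 40.8 CPM in A and from 27.8 to 27.5 CPM in B. The coding ORF went from 150 to 139 CPM in A and from 45.0 to 67.1 CPM in B. An exact permutation test of 2 libraries against 2 cannot go below p = 0.333, so none is given. In monosomes no such order was seen, where log phase had 41.6% and 22.9%, serum starvation 29.0% and 26.3%, and amino acid starvation 30.3% and 38.3%. Over all conditions the share was 31.4% ± 7.17 in monosomes and 37.5% ± 8.01 in polysomes (SD, n = 6), a difference of -6.08 points (exact permutation test within condition, two-sided, p = 0.213, adjusted over 4 genes p = 0.284).

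**Figure D4:**
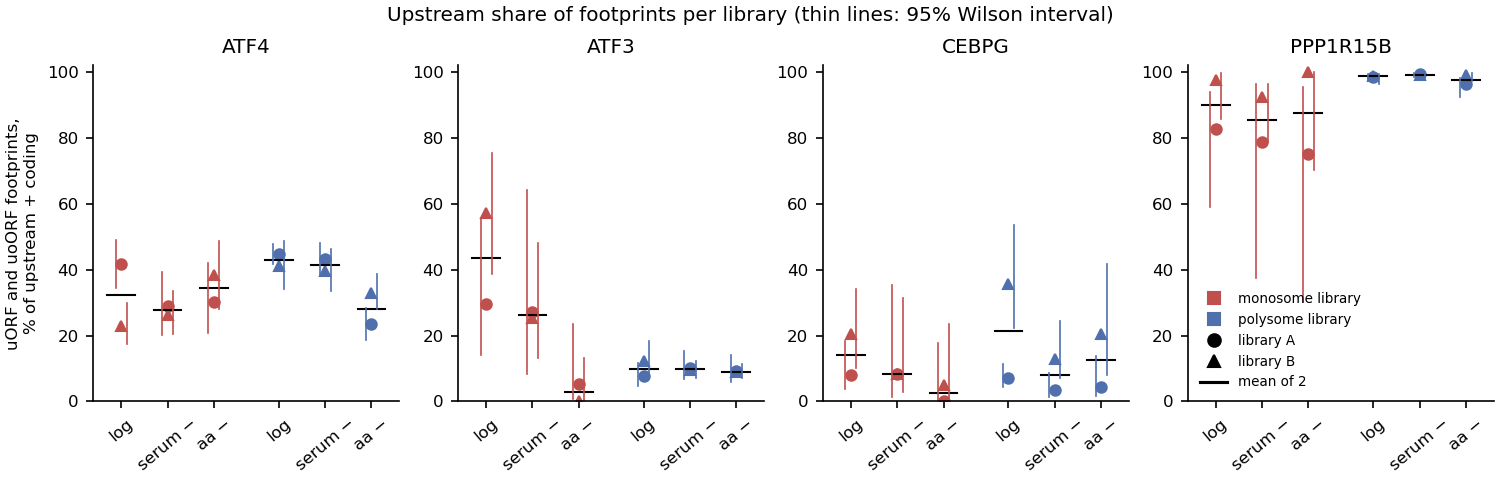
Share of a gene's upstream and coding footprints that lie on its uORFs and uoORFs, in percent, for the 4 genes with upstream ORFs in each library, monosomes in red and polysomes in blue, A as circles and B as triangles, bars for the mean of 2 and thin lines for 95% Wilson intervals. The 2 amino acid starvation polysome libraries of ATF4 lie below the other 4 polysome libraries. PPP1R15B, set against a coding ORF of 117 nt alone, lies at 75.0% or above everywhere.

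For ATF3 the kept upstream ORFs are an overlapping one of 261 nt from ACG at chr1:212608769-212615116, which shares 56 nt with the coding ORF in another frame, and a uORF of 72 nt from AGG at chr1:212608777-212608848. In polysomes their share was steady, from 7.63% to 12.3% over the 6 libraries. Monosomes of log phase had 29.6% and 57.3%, those of serum starvation 27.0% and 25.3%, and those of amino acid starvation 5.45% and 0%, where 0 of 24.7 footprints allows up to 13.3% by the interval. These monosome shares rest on 5.4 to 24.7 coding footprints per library. The difference between fractions was 14.5 points (exact permutation test, two-sided, p = 0.0556, adjusted p = 0.111). The overlapping ORF had 0 to 17.3 CPM in monosomes (mean 7.08 ± 6.52) and 2.88 to 14.4 CPM in polysomes (mean 6.96 ± 4.14; SD, n = 6), and the fractions overlapped. The fit over log2 values was -2.21 (SE 1.11, edgeR, adjusted p = 0.124), with 0.2 and 0 footprints in the amino acid starvation monosome libraries, and it was not called. CEBPG had 61.8 upstream footprints in all, no upstream ORF averaging 3 per library, and shares of 0 to 20.5% in monosomes and 3.34 to 35.6% in polysomes (exact permutation test, p = 0.37).

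PPP1R15B, the phosphatase subunit that acts on eIF2 also in unstressed cells, had most of its counted footprints on upstream ORFs. The coding ORF they are set against has only 117 nt. In the ORF-level test, 2 of 2 tested uORFs and 1 of 2 tested uoORFs of this gene were called higher in polysomes, where 39.5% of 26466 ORFs were called. A uORF of 18 nt called from AAG (chr1:204411664-204411681) had 61.0 and 50.7 CPM in log phase polysomes, 78.7 and 57.5 CPM in serum starvation polysomes and 56.1 and 63.4 CPM in amino acid starvation polysomes. The monosome libraries had 18.4 and 14.8, 3.56 and 17.0, and 11.7 and 15.1 CPM, all below the polysome libraries, an order not counted over all ORFs. On the ORF-level scale, which is not that of these CPM values, this uORF was -2.79 apart (SE 0.511, edgeR, adjusted p = 0.001). It was -5.10 apart without the serum starvation monosome library B. Other settings of the fit with all 12 libraries, scaling to coding footprints among them, gave -3.49 to -2.14 (edgeR, adjusted p up to 0.00592). A second one of 75 nt from CTG (chr1:204411487-204411561) had 0.89 to 30.2 CPM in monosomes and 27.6 to 89.8 CPM in polysomes. It was -2.19 apart (SE 0.567, adjusted p = 0.00803), -4.68 without that same library, and lost the call when scaled to coding footprints (-1.48, adjusted p = 0.0598). The 2 tested uoORFs share 0 nt with the kept coding ORF of 117 nt. One of 453 nt from ATT was -1.53 apart (SE 0.553, adjusted p = 0.0394). That call was lost without any 1 of 5 libraries, the log phase monosome A (adjusted p = 0.0517), serum starvation monosome A (0.0516), serum starvation polysome A (0.0681), amino acid starvation monosome A (0.057) or amino acid starvation polysome B (0.0588). It was also lost when scaled to coding footprints (-0.86, adjusted p = 0.269), and without amino acid starvation monosome library B the value was -3.66. Another of 129 nt from CTG had 0 to 20.6 CPM in monosomes (mean 8.51 ± 9.84), with 0 in both amino acid starvation libraries, and 0.481 to 5.04 CPM in polysomes (mean 2.35 ± 1.70; SD, n = 6). The fit over log2 values had the sign opposite to these means (-0.42, SE 1.17, adjusted p = 0.793, and -2.84 without log phase monosome B), so no direction is given. The share of footprints on upstream ORFs was 87.7% ± 10.3 in monosomes and 98.5% ± 1.05 in polysomes (SD, n = 6), -10.8 points apart (exact permutation test, p = 0.0556, adjusted p = 0.111), and from -6.62 points (without amino acid starvation monosome A, adjusted p = 0.241) to -15.0 points (without amino acid starvation monosome B, adjusted p = 0.037, exact permutation) when 1 library was left out.

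Other genes of the pathway were read from 4 lists, chosen with earlier results of these data known. Of 20 genes of eIF2 signalling, 15 were tested, and 2 were higher and 6 lower in monosomes, where 38.8% of all genes were called (edgeR, mean of the 3 conditions, list median -0.39 against -0.18 for all genes). EIF2S2, the beta subunit of eIF2, was lower (-1.78, SE 0.273, adjusted p = 0.000225), as were EIF2B1 of its exchange factor (-1.61) and PPP1CA, the catalytic subunit that PPP1R15B binds (-1.33). EIF2A, another initiation factor, was higher (2.15, SE 0.545). Of 30 other stress factors and ATF4 target genes, 16 were tested, and 2 were higher and 5 lower (median -0.07). XBP1, the transcription factor of the unfolded protein response, was 5.74 higher in monosomes (SE 0.761, adjusted p = 7.28e-05). The amino acid transporter SLC7A5 (-1.72), the serine synthesis enzyme PSAT1 (-1.83) and the tryptophanyl-tRNA synthetase WARS1 (-1.41) were lower. Of 33 other bZIP genes 4 were tested, with CREBZF (1.26) and JUN (0.98) higher and ATF1 (-1.59) lower. Of 24 growth arrest genes and mTORC1 brakes 9 were tested, with MXI1 (0.78) higher and GADD45G (-1.70) and BTG1 (-1.17) lower. DDIT3, ATF5, TRIB3, ASNS and PPP1R15A were not analysed here, since no coding ORF carried their names.

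In amino acid starvation polysomes no list gene passed without the block (edgeR, with 1, 3, 1 and 0 of the 4 lists' genes at an unadjusted p under 0.05, in the order above). With the block, which called 10.1% of all genes, 3 of 16 stress factors and ATF4 targets rose, the serine hydroxymethyltransferase SHMT2 (1.57, SE 0.396, adjusted p = 0.0127), the asparaginyl-tRNA synthetase NARS1 (1.40) and the amino acid transporter SLC38A2 (1.21). The median of that list was 0.61 against -0.08 for all genes. The exchange factor subunits EIF2B3 (1.32) and EIF2B2 (1.39) rose as 2 of 15 genes of eIF2 signalling. JUN, a bZIP partner of ATF3, rose by 2.15 (SE 0.386, adjusted p = 0.00152) as 1 of 4 bZIP genes, and 0 of 9 growth arrest genes passed (edgeR with the block, 1 at an unadjusted p under 0.05). In amino acid starvation monosomes no gene of the 4 lists was called in either model, with 0 at an unadjusted p under 0.05 without the block.

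The genes most like a member were sought among 3368 genes by the Pearson correlation of log2 CPM over the 12 libraries. The libraries fall into 2 fractions and 2 letters, which all genes share, so the values only describe. The 5 nearest to ATF4 were YKT6 (0.968), HOXA10-HOXA9 (0.955), LSM5 (0.947), STMP1 (0.946) and FAM241A (0.944). Those nearest to CEBPG were SNX10 (0.976), JTB (0.974), ATP6V0E1 (0.972), COA4 (0.97) and LSM1 (0.969). For ATF3 they were LDHB (0.92), the unnamed ENSG00000014641 (0.911), STMN1 (0.891), PLSCR1 (0.889) and FDFT1 (0.883). GADD45A had lower values, led by DDX41 (0.80), ILKAP (0.779), DCUN1D2 (0.75), POGK (0.735) and GATA2 (0.731). Among the members, ATF4 and CEBPG correlated at 0.87 and the other pairs at -0.57 to 0.27.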

How the data were processed

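Per the labels, footprints of 17 to 34 nt were sequenced from 12 libraries after 14 PCR cycles. The authors deposited 1 table of 149028 ORFs with expected counts per library and a p-value per ORF; the submitters' processing notes name Bowtie 1.0 and hg38. The caller is named only by the table's title, PRICE. ORFs on the same codons can repeat the same footprints, so each codon was counted once (124829 ORFs kept, 7031 coding), expected counts were summed per gene and rounded, and genes were named by position in RefSeq (5894 of 6375). Genes passing filterByExpr (minimum count 10) entered quasi-likelihood models of edgeR 4.0.16 (R 4.3.3, TMM factors, 6 groups), with Benjamini-Hochberg adjustment over all 4765 genes per contrast and a threshold of 0.05. Scripts were checked on simulated data. DESeq2 1.42.0 and other alternatives appear in the closing section. Upstream shares were compared by exact permutation within condition. Column letters, A or B, are tied to no replicate number by the labels and were used for pairing. B minus A deviations correlated between all pairs of groups, at r 0.77 to 0.866 between polysome groups. The values were lower between monosome groups (0.214 to 0.314) and across fractions (0.161 to 0.422), so the letters pair monosome libraries less closely. Blocked values stand beside results they change. Members and lists were chosen with earlier results of these data known. The named genes are the 7 members, up to 4 called genes per list with the smallest p, and the 5 most like genes of members averaging at least 50 footprints.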

Additional observations from a re-analysis of the deposited data

Results flagged for a closer look

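Footprints were also seen on called ORFs of the member genes that enter none of the comparisons above, and those kept after each codon was counted once and holding at least 0.25 times the coding total are given here. In CEBPB an internal ORF of 129 nt (type iORF, chr20:50191326-50191454) held 291.1 footprints over the 12 libraries, against 275.0 on the truncated coding ORF. In PPP1R15B, with 43.0 coding footprints, 8 internal ORFs held 37.8, 33.5, 11.9, 43.5, 16.6, 51.8, 24.7 and 15.5 footprints. Their part in the gene totals was not tested.

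In 2 cases both letters moved one way in monosomes and the other way in polysomes under the same starvation. For ATF4 in serum starvation the mean log2 change was 1.05 larger in monosomes than in polysomes, and for DDIT4 in amino acid starvation it was smaller, by -1.14. The edgeR test of the change of the ratio did not call either (1.19, adjusted p = 1, and -1.19, adjusted p = 0.998). The DDIT4 monosome libraries of amino acid starvation hold 2.5 and 4.5 footprints, and the fitted monosome change was 0.05 without log phase monosome library B.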

How the results depend on the processing

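Of 1325 values under alternatives for 69 results, 1209 kept direction and call, 11 lost and 30 gained a call, 0 reversed a call and 75 moved otherwise. ATF4 and CEBPG kept their call over the mean of the 3 conditions in every alternative that held their ORFs, with 1.90 to 2.49 (ATF4) and 1.75 to 2.76 (CEBPG) when 1 library was left out. CDS-type ORFs alone left only DDIT4, and a caller p under 1e-4 only GADD45A. In log phase the number of members called, 0, was 2 with the replicate block, 2 with DESeq2, 1 with RLE or library-size scaling, 1 with a filter of 50 counts in 2 libraries, 2 with the compared groups alone, and 0 to 2 without 1 library. In serum starvation, 1 became 2 with the replicate block and 0 to 1 without 1 library. In amino acid starvation, 0 became 2 with the replicate block and 1 with DESeq2 or the compared groups alone. For amino acid starvation over log phase, 0 became 1 with the replicate block in polysomes (ATF3, 1.42) and 1 in monosomes with the compared groups alone. The difference in the ATF4 upstream share, -6.08 points, was 1.44 with uORFs alone. Swaps within letter pairs (replicate block) gave adjusted p = 0.25 for all 4 upstream shares. Among the members' coding ORFs, uORFs and uoORFs, the replicate block changed no other call than those given here and in the report. Few footprints per gene limit the monosome values.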

Other observations

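Internal and downstream ORFs of ATF4 had few footprints but lay with its monosome libraries. In a test that called 39.5% of 26466 ORFs, 5 of 6 tested iORFs of ATF4 were called higher in monosomes, with log2 differences from 0.56 to 3.46 over the 6 (edgeR, ORF level), and both tested dORFs, which follow the coding ORF, were called with 2.69 and 3.38. The iORF of 117 nt at chr22:39521603-39521820 had 42.2 to 128 CPM in monosomes and 3.64 to 5.77 CPM in polysomes (log2 difference 3.34, SE 0.456, adjusted p = 0.000104). An iORF of CEBPG of 66 nt differed by 2.43 (SE 0.78, adjusted p = 0.0238). The iORF of CEBPB, with 0 to 16.2 CPM in monosomes and 9.07 to 40.0 CPM in polysomes, differed by -1.53 (SE 0.708, adjusted p = 0.0965), and by -1.64 (adjusted p = 0.016) with the replicate block.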
